A study of Homo sapiens with 8 samples.

Results

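The genes described here are 49 genes of programmed cell death and cell survival, and the question was whether and how strongly the fusion protein PML::RARA was found at their promoters. They are members of the BCL2, caspase, inhibitor of apoptosis (IAP), BAG and BNIP families, together with adaptors of the death receptors and factors released from mitochondria. The genes were listed by name and looked up by symbol in the authors' annotated list of binding peaks. Of the 49 genes, 27 had at least 1 peak under their own symbol, and these 27 genes carried 34 of the 7169 peaks with a gene symbol and of the 15412 peaks in all. The other 22 genes had no peak under their own symbol. They were BCL2, BCL2L1, BCL2L12, BIK, BBC3, BNIP1, BNIP3, BNIP3L, BOK, CASP1, CASP2, CASP4, CASP10, FAS, APAF1, BIRC5, DIABLO, HTRA2, DFFB, BAG3, BAG4 and BAG5.

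PML::RARA is the fusion of the nuclear body protein PML with the retinoic acid receptor RARA that drives acute promyelocytic leukaemia. U937-PR9 is a monocytic cell line carrying a PML::RARA transgene under a promoter that zinc switches on, and it was kept for 5 h with 100 μM ZnSO4, which induces the fusion, or with water as the uninduced state. Cut&Run, in which a nuclease is tethered to an antibody in isolated nuclei and the released DNA is sequenced, was made with 4 µg of an antibody to the fusion or to RARA, each in 2 replicates of induced and uninduced cells, giving 8 libraries. The values below come from 1 list, that of the fusion antibody in induced cells, and the other libraries were not analysed here. All cells behind the list had received zinc and carried the transgene, so an effect of zinc and one of PML::RARA cannot be told apart in it, and the cells also keep their own RARA. Each peak has 1 value, and values of single replicates were not part of it. No difference below could therefore be tested against the spread between replicates, and all comparisons are descriptions. The sequencing depth behind the list is unknown.

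Apoptosis runs along 2 routes. In the mitochondrial route, BH3-only proteins bind and neutralise the BCL2-like guardians, the pore formers BAX and BAK open the outer mitochondrial membrane, and the released factors switch on caspase 9 on the APAF1 scaffold. In the death receptor route, receptors such as FAS recruit the adaptor FADD and caspase 8, a step that CFLAR holds back. IAPs restrain caspases, and the mitochondrial factors DIABLO and HTRA2 release that restraint. Myeloid cells live and die by the balance of these proteins, with MCL1 and BCL2A1 as prominent guardians in this lineage.

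Peak height is the largest signal within a peak and peak width is its length, in the coordinates of genome build hg19. The apex is the middle of the interval with the largest signal, and distances are from the apex to the nearest annotated start site of a gene, negative when upstream. A few stretches of hg19 at or next to the apexes are shown because they differ in the sequence under peaks that the comparisons below turn on. They were cut to leave out exons and are written in the direction of the gene. Capitals mark the GC box (GGGCGG, or CCGCCC on the other strand), the CCAAT box (CCAAT, or ATTGG on the other strand) and the E-box (CACGTG, the same on both strands). The stretches of CASP9 lie under its upstream and its downstream peak, the highest of all the genes. CASP2 had the highest peak of any gene without a label. BAX is a pore former with a low peak, BCL2L11 a BH3-only gene with a higher one, and the CASP8 stretch holds hardly any CpG.
CASP9 upstream peak (chr1:15853044-15853243, minus strand): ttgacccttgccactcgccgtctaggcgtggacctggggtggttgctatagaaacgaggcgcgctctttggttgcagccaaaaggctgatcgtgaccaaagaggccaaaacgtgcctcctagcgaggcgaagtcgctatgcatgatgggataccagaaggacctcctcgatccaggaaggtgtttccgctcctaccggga
CASP9 downstream peak (chr1:15851443-15851642, minus strand): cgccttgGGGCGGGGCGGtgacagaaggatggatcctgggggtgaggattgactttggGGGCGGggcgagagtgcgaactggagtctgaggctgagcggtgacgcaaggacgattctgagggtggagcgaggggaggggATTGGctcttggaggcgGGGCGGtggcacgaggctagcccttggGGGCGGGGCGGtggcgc
CASP2 (chr7:142985142-142985307, plus strand): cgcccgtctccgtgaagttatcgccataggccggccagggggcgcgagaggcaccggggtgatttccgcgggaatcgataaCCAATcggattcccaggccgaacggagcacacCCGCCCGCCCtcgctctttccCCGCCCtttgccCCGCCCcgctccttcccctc
CASP8 (chr2:202123111-202123310, plus strand): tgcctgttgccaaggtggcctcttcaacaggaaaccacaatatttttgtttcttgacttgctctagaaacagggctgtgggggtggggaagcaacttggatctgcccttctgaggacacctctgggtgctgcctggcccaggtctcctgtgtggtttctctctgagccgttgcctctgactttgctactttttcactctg
BAX (chr19:49457914-49458071, plus strand): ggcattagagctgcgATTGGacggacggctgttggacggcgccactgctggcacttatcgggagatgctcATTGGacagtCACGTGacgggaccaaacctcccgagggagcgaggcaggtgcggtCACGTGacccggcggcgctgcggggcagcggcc
BCL2L11 (chr2:111878328-111878490, plus strand): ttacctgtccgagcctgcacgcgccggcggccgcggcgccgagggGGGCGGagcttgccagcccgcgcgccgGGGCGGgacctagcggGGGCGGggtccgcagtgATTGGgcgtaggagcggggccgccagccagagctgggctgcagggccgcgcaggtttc
The stretch of the downstream CASP9 peak holds 6 GC boxes and 16 CpG, that of the upstream peak 0 GC boxes and 14 CpG. The CASP2 stretch holds 4 GC boxes and the BCL2L11 stretch 3, each with 1 CCAAT box. In the BAX stretch there are 2 E-boxes and 2 CCAAT boxes. The stretches are shorter than the 401 bp around the apex used for the motif counts below. Over those 401 bp BAX and BCL2L11 held 3 GC boxes each, so they did not differ in this motif. The CASP8 stretch holds none of these motifs and 1 CpG. A match is a description of the letters and not of a bound factor.

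A peak under the gene's own symbol was found for 55.1% of the 49 genes (27 genes, Wilson 95% interval 41.3 to 68.1%), beside 30% of the 20090 protein-coding genes of the annotation. All intervals of shares cover the counting of genes only. A label depends on which gene the authors assigned to an apex. Labels were matched to the annotation by symbol. All 49 genes were found there as protein-coding, whereas 521 of the 6546 labelled genes were not. A coding gene listed under another symbol would thus count as unlabelled in the background shares. Counted by position instead, 37 of the 49 genes (75.5%, interval 61.9 to 85.4%) had an apex within 1 kb of one of their own start sites, beside 39.3% of protein-coding genes. With either criterion the number was 39 (79.6%, interval 66.4 to 88.5%), beside 40.2%. These 49 genes, which were listed with earlier results of these data known, were thus in the peak list more often than protein-coding genes at large. The background was not limited to genes expressed in these cells, since expression was not analysed here.

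Of the 37 genes with a peak at an own start site, 12 (32.4%) carried no peak under their own symbol, beside 26% of the protein-coding genes with such a peak. At 7 of the 12 the highest such peak was labelled with another gene. This was the case for BCL2L12 (label IRF3), BBC3 (MIR3191), FAS (ACTA2), APAF1 (IKBIP), HTRA2 (AUP1), BAG4 (LSM1) and DFFB. At the other 5, BCL2, BCL2L1, CASP2, DIABLO and BNIP3L, the peaks had no label. Absence of a label was therefore not absence of a peak for these 12 genes. The remaining 10 genes had neither a label nor an apex within 1 kb of an own start site, and their nearest peaks lay between 5265 bp (BIK) and 1052343 bp (CASP4) away.

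**Figure D1:**
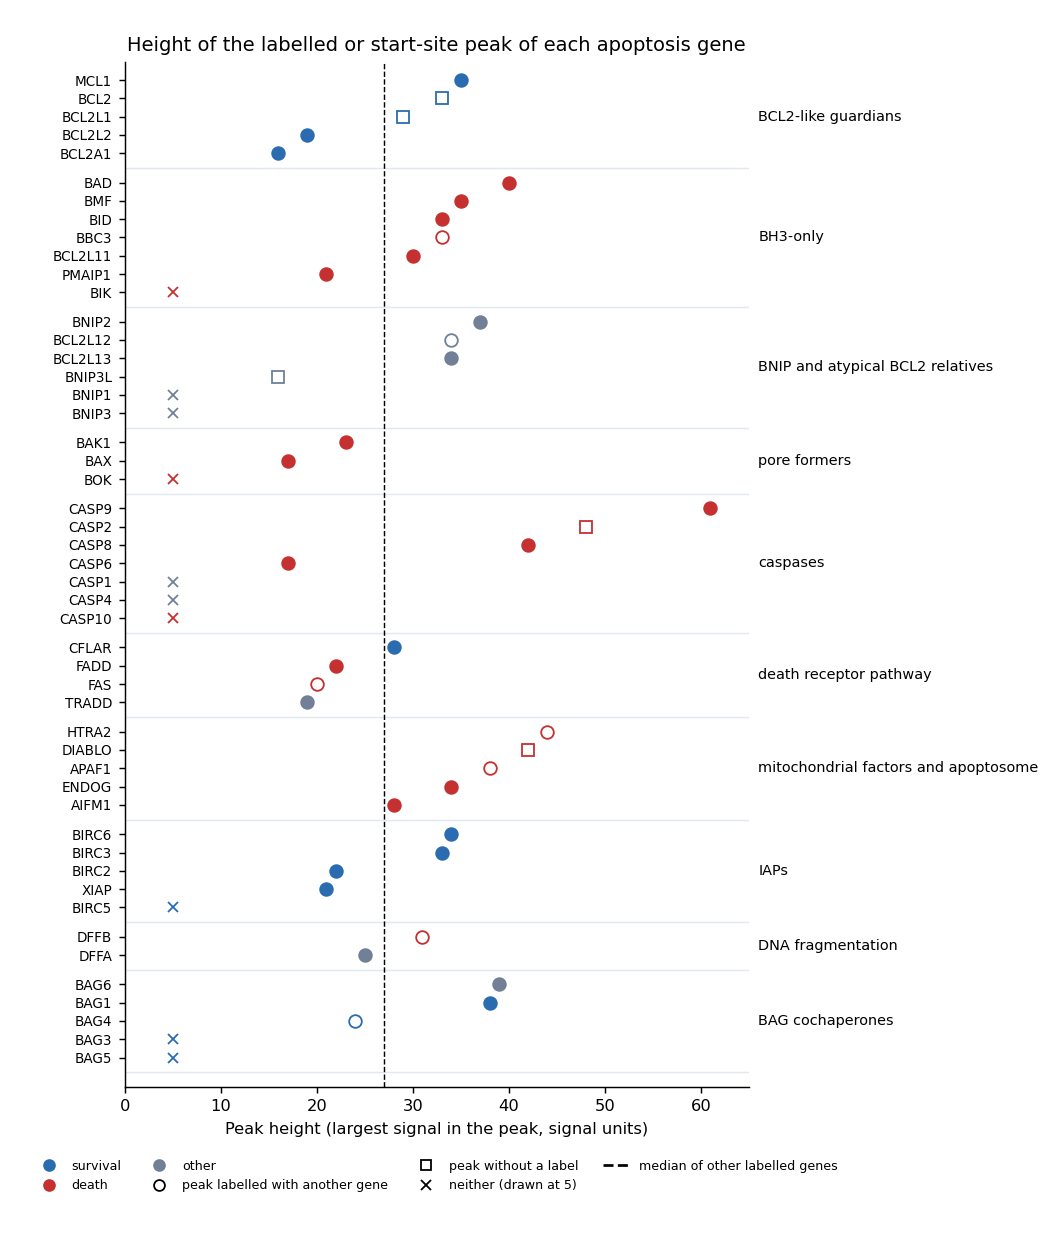
Height of the labelled or start-site peak, in signal units, for each of the 49 genes, grouped by function and coloured by role. Filled circles are peaks under the gene's own symbol (the highest where there are several), open circles are peaks labelled with another gene, squares are unlabelled peaks, crosses are genes with neither a label nor a peak at an own start, and the dashed line is the median of 27 over other labelled genes. CASP9 stands highest at 61, 10 genes are crosses, and BID and TRADD are drawn by labelled peaks whose apexes lie more than 1 kb from an own start.

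Among the guardians, which hold the pore formers in check, all 5 had a peak at an own start site and 3 carried their own label. MCL1 (ENSG00000143384, minus strand of chromosome 1) had a peak of height 35 and width 1418 bp from 150551281 to 150552698. The apex was placed 22 bp in front of a start site. It was higher than 72.9% of the other 6519 labelled genes, each taken by its highest peak. The labelled peaks of BCL2L2 and BCL2A1 were low. BCL2L2, which encodes BCL-w, measured 19 in height and 894 bp in width from 23775625 to 23776518 on chromosome 14. An additional peak at an upstream BCL2L2 start site, 41 high and 1825 bp wide, was labelled PPP1R3E. BCL2A1, on chromosome 15 from 80263279 to 80263833, had the lowest labelled peak of all 27 genes, at 16 in height and 555 bp in width. Of the other labelled genes, 0.199% had a lower one and 5.48% had one below 17, so that ties were common at this height. A peak without a label, 6421 bp upstream of BCL2A1, reached a height of 44, above 91.0% of all peaks in the list.

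BCL2 itself (ENSG00000171791, minus strand of chromosome 18 from 60790579 to 60987361) had 3 peaks at own start sites and none with a label. The peak at the 5′ end of the gene, from 60986624 to 60987587, was 17 high and 964 bp wide. A narrow peak of 396 bp from 60985293 to 60985688, 20 high, peaked in coding exon 2. The highest BCL2 peak lay far inside the gene. It spanned 60805028 to 60806084 in intron 2, at 33 in height and 1057 bp in width, and its apex was 9 bp from the start of a shorter transcript and 181367 bp from the main start site. The BCL2L1 gene, which encodes BCL-xL, had an unlabelled peak of height 29 and width 1721 bp at an own start site, and 2 further unlabelled peaks of heights 29 and 34 in its intron 2.

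BH3-only proteins are the sensors that start the mitochondrial route. Of the 7 BH3-only genes, 5 carried their own label, with widths from 1196 bp (BMF) to 3063 bp (BID) and a median of 1721 bp. Of these 5, 4 were above the upper quartile of width (80%, Wilson 95% interval 37.6 to 96.4%), beside 25% of all labelled genes. The group was picked out after the values were seen and was not tested, and the interval does not allow for that choice. BID, whose protein links the death receptor route to mitochondria, had the widest labelled peak of the 27 genes, 3063 bp with a height of 33 from 18254252 to 18257314 on chromosome 22. Its apex lay in intron 1, 2259 bp downstream of the nearest start site, although the peak itself covered a start site. BAD, a BH3-only protein held inactive by phosphorylation, had a peak of width 3028 bp and height 40 from 64051373 to 64054400 on chromosome 11. BBC3, which encodes PUMA, had a peak of 3046 bp with a height of 33, labelled MIR3191, with its apex 4 bp from an internal start site in intron 2 and 4014 bp from the main start. Among the labelled and start-site peaks of the 49 genes, these 3 alone exceeded 3 kb, which was picked out after the values were seen. A labelled peak of 3 kb or more was found for 2.73% of the 6546 labelled genes, and for 2 of the 27 (BID and BAD, 7.41%), since BBC3 carries no label of its own.

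The other BH3-only genes had narrower peaks at their start sites. BCL2L11, which encodes BIM, had a peak 30 high and 1643 bp wide from 111877784 to 111879426 on chromosome 2, and the apex was 13 bp ahead of the start. PMAIP1, which encodes NOXA, was wide but low, at 1721 bp and a height of 21. BMF had 3 labelled peaks, at the 5′ end and in introns 2 and 3, with heights of 35, 30 and 26. The BMF peaks were thus lower the farther they lay into the gene. BIK had no peak at its start and 1 narrow peak of 304 bp with a height of 23 in its intron 1. BAD had more signal at its other end, where a peak without a label from 64035145 to 64038420 covered the 3′ UTR with a height of 63, above 99.3% of all peaks. That peak lay 118 bp from a start site of the overlapping gene GPR137.

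The 2 pore formers with a peak had heights in the lower part of the range. BAX (ENSG00000087088, plus strand of chromosome 19) had a peak 17 high and 1037 bp wide from 49457656 to 49458692, and the apex was 8 bp ahead of the gene. BAK1 (chromosome 6, 33547953 to 33548314) had a height of 23 and, at 362 bp, the narrowest highest labelled peak of the 27 genes. BOK, the remaining pore former, had no peak at its start and none closer than 127956 bp. The BAX peak was higher than that of 5.48% of other labelled genes, of which 10.5% were at 17 or lower. The BAK1 peak was higher than that of 34.0%. The labelled BH3-only genes spanned 24.5% (PMAIP1) to 83.3% (BAD), so that the groups overlapped.

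Among the caspases, the proteases that carry out the death programme, labelled peaks ran in height from 17 (CASP6) to 61 (CASP9). CASP9 (ENSG00000132906, minus strand of chromosome 1), the initiator of the mitochondrial route, had 2 labelled peaks. The first, from 15852669 to 15854023, was 61 high and 1355 bp wide, and was higher than 98.8% of other labelled genes. The second, from 15850230 to 15852440, had a height of 57, a width of 2211 bp and the largest total signal of all 34 labelled peaks, 46167. The apex of the first lies 115 bp upstream of CASP9 and also within 1 kb of a start site of DNAJC16, whereas the second has no other gene's start within 1 kb. CASP8 (ENSG00000064012, plus strand of chromosome 2), the initiator of the death receptor route, had 3 labelled peaks at different start sites of the gene. The one from 202122296 to 202123653 was 42 high and 1358 bp wide, above 86.2% of other labelled genes. The peak at the 5′ end, from 202097970 to 202098347, was 18 high. The one at the main start, from 202124975 to 202125563, was 17 high. The highest CASP8 peak thus stood over an internal start site, 2048 bp upstream of the main one, and not at the 5′ end of the gene.

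CASP2, an initiator caspase of the p53-linked PIDDosome, had an unlabelled peak of height 48 and width 1535 bp from 142984761 to 142986295 on chromosome 7, above 93.3% of the labelled peaks of other genes. CASP6, an executioner, had a peak 17 high and 942 bp wide. CASP1 and CASP4, which are caspases of inflammation, had no peak closer to a start site than 986459 bp and 1052343 bp. CASP10, which lies between CFLAR and CASP8 on chromosome 2, had no peak at its start either. In that cluster CFLAR and CASP8 together carried 5 labelled peaks, and the peak closest to a CASP10 start site lay 24514 bp away.

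In the death receptor pathway the peaks were moderate to low. CFLAR, which encodes the caspase 8 inhibitor FLIP, had 2 labelled peaks, of height 28 and width 1177 bp from 201980775 to 201981951 and of height 22 and width 1026 bp from 201982825 to 201983850. Both apexes lay in intron 1. FADD, the adaptor between receptor and caspase 8, had a peak 22 high and 1278 bp wide. FAS, the receptor itself, had a peak of height 20 and width 1391 bp from 90749889 to 90751279 on chromosome 10, labelled ACTA2, and the apex was 55 bp ahead of FAS. TRADD, the adaptor of the TNF receptor, carried a label on a peak of height 19 and width 505 bp, but its apex was 1132 bp upstream of the gene and within 1 kb of a start site of FBXL8.

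Of the mitochondrial factors and the apoptosome, all 5 genes had a peak at an own start site, but only AIFM1 and ENDOG had their own label. AIFM1, which encodes the apoptosis-inducing factor, had a peak 28 high and 1189 bp wide. The nuclease gene ENDOG had a peak 34 high and 699 bp wide. The 3 genes without their own label stood higher than these. HTRA2 had a peak 44 high and 2174 bp wide, DIABLO 42 high and 1512 bp wide, and APAF1, the scaffold of caspase 9, 38 high and 1860 bp wide from 99037813 to 99039672 on chromosome 12. The APAF1 apex was 434 bp upstream of APAF1 and 68 bp from a start site of IKBIP, the gene of its label. DFFB, the nuclease that cuts DNA between nucleosomes, had a peak of height 31 without its own label, and its inhibitor DFFA had a height of 25 under its own.

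Of the 5 IAP genes listed, 4 carried their own label. BIRC6 and BIRC3 had heights of 34 and 33, with widths of 1366 and 688 bp. The heights of BIRC2 and XIAP were 22 and 21, with widths of 1157 and 1117 bp. The adjoining genes BIRC3 and BIRC2, which encode the IAPs that act in TNF signalling, thus differed in height by 11 units, with the narrower peak the higher. XIAP (ENSG00000101966, chromosome X, 122993403 to 122994519) encodes a direct inhibitor of caspases. BIRC5, which encodes the mitotic IAP survivin, had no peak closer to a start site than 25627 bp.

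The BAG genes encode cochaperones of HSP70, several of which protect cells from death. BAG6 and BAG1 carried their own labels on peaks of heights 39 and 38 and widths 1645 and 1576 bp. Each of these apexes was also within 1 kb of a neighbour's start site, APOM for BAG6 and CHMP5 for BAG1. BAG4 had a peak of height 24 and width 524 bp labelled LSM1, and BAG3 and BAG5 had none at their starts. Of the BNIP genes, BNIP2 had a peak 37 high and 1000 bp wide, and BNIP3L, a receptor for mitophagy, had an unlabelled peak of height 16. BNIP1 and BNIP3 had none. BCL2L13, a BCL2 relative that also acts in mitophagy, had 2 labelled peaks of heights 34 and 17 and widths 1064 and 499 bp. Its highest start-site peak, 35 high and 716 bp wide at the 5′ end of the gene from 18110996 to 18111711, was labelled ATP6V1E1. BCL2L12 shared a peak of height 34 and width 2338 bp with IRF3, the gene of its label.

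**Figure D2:**
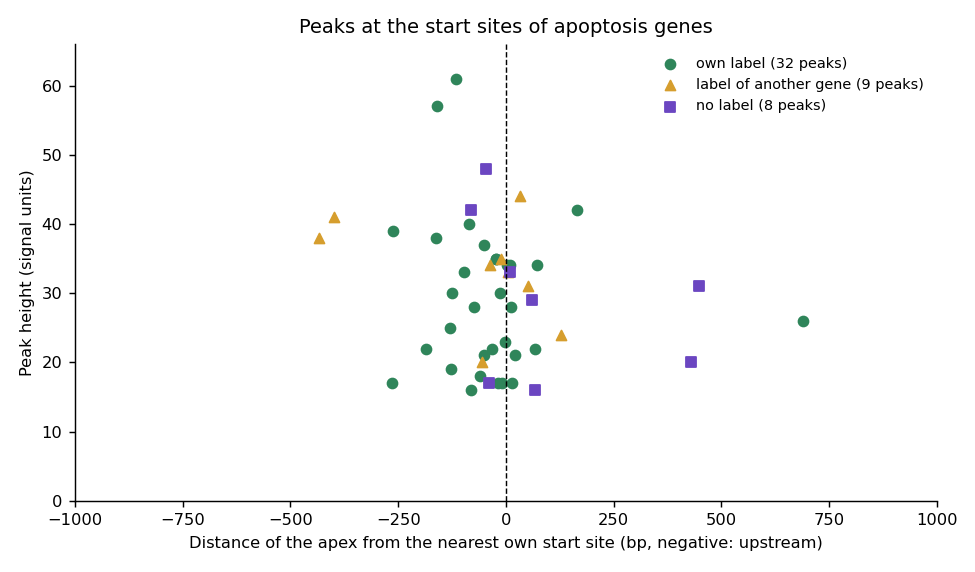
Distance of the apex from the nearest own start site in bp (negative values are upstream) against peak height in signal units, for the peaks within 1 kb of an own start site of one of the 49 genes. Colours and shapes give the label of the peak, and the labelled apexes of BID and TRADD fall outside the 1 kb shown. The 2 peaks of CASP9, at heights 61 and 57, lie upstream of their start sites.

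Peaks of the apoptosis genes were close in size to those of other genes. With the highest labelled peak of each gene, the 27 genes had a median height of 30 (quartiles 21.5 and 35, range 16 to 61) and the other 6519 labelled genes one of 27 (quartiles 21 and 35, range 13 to 86), a ratio of 1.11. The median width was 1177 bp (quartiles 918 and 1392) against 1131 bp (quartiles 799 and 1556.5), a ratio of 1.04. Total signal gave a ratio of 1.06 and mean signal per bp a ratio of 1.02. The quartiles of the apoptosis genes thus lay inside or at those of the other genes for both measures. Among the 27 genes, 6 (22.2%) were above the upper quartile of height, beside 24.7% of all labelled genes, and 6 (22.2%) were above the upper quartile of width, beside 25%. Both shares were near the background. The median gene was higher than 59.5% of other labelled genes, and within 1 of 10 classes of equal number by width it was higher than 50%.

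More than 1 labelled peak was found for 5 of the 27 genes (18.5%, Wilson 95% interval 8.18 to 36.7%), beside 8.42% of all labelled genes, and the lower bound of the interval lay below that background. These were BMF and CASP8 with 3 each and CASP9, CFLAR and BCL2L13 with 2 each. CASP8, CFLAR and BCL2L13 have 22, 24 and 10 annotated start sites, and BMF and CASP9 have 8 and 10. An apex within 1 kb of another gene's start site was found for 7 of the 27 (25.9%), beside 22.6%, and these were BCL2L2, BAD, CASP9, TRADD, DFFA, BAG1 and BAG6. At these genes other than TRADD, the highest labelled peak cannot be assigned to 1 gene by position. The TRADD apex lay 1132 bp from its own start site, so that within 1 kb there was a start site of FBXL8 alone. The second peak of CASP9 had no other gene's start within 1 kb. At BCL2L2 the other gene is BCL2L2-PABPN1, whose symbol joins those of BCL2L2 and its neighbour PABPN1.

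**Figure D3:**
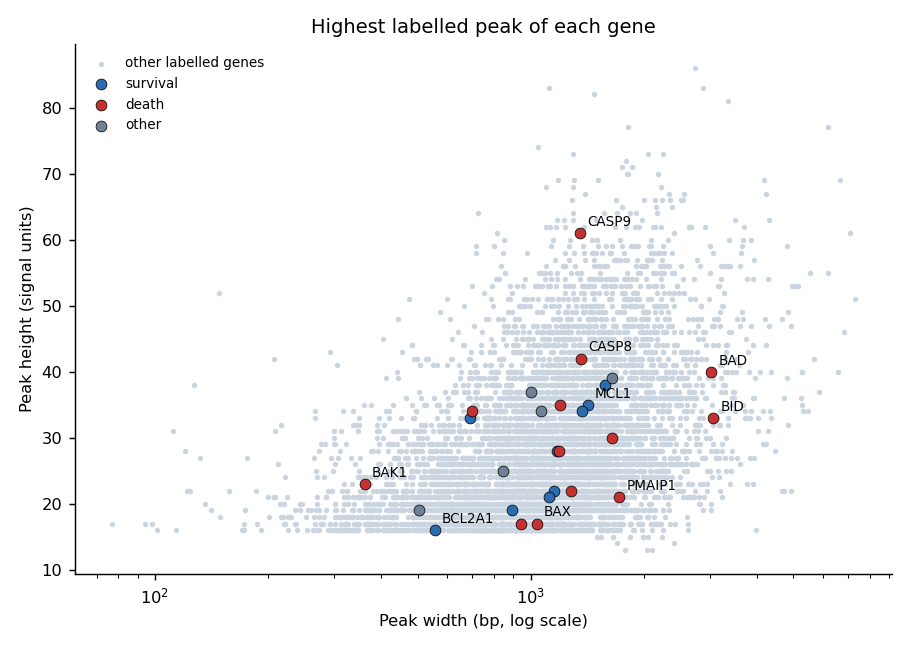
Width in bp (log scale) against height in signal units of the highest labelled peak of each gene. Grey points are the 6519 other labelled genes and coloured points are the 27 apoptosis genes by role. BAD and BID are the widest of the 27 at 3028 and 3063 bp, CASP9 is the highest at 61, and BCL2A1 is at the low edge at 16.

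Survival and death genes overlapped in height and width. Of the 15 survival genes, 9 carried their own label (60%, interval 35.7 to 80.2%), and of the 23 death genes 13 did (56.5%, interval 36.8 to 74.4%). By position the numbers were 12 of 15 and 19 of 23. The remaining 11 genes have mixed, inflammatory or inhibitory roles and were kept apart, and 5 of them carried their own label. Labelled survival genes had a median height of 28 (range 16 to 38) and labelled death genes one of 30 (range 17 to 61), a ratio of 0.933. The median widths were 1157 bp (range 555 to 1576) and 1278 bp (range 362 to 3063), a ratio of 0.905. The lowest heights of the groups differed by 1 unit, and with 1 peak per gene the 3 highest, those of CASP9, CASP8 and BAD, belonged to death genes. Without CASP9 the ratios were 0.966 for height and 0.935 for width. With the highest peak at an own start site under any label, the median heights were 31 for 12 survival genes and 33 for 19 death genes. The median widths were 1167 and 1391 bp. By this rule BCL2 entered with its intron 2 peak of height 33, not with the one of 17 at its 5′ end. BCL2L2 entered with the peak of 41 labelled PPP1R3E, 4935 bp upstream of its main start site, not with its labelled peak of 19. Among the death genes, CASP8 (42) and BBC3 (33) also entered with peaks at internal start sites. Where an apex within 1 kb of another gene's start was left out, the ratio of the median heights was 1.00 with 7 survival and 11 death genes.

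**Figure D4:**
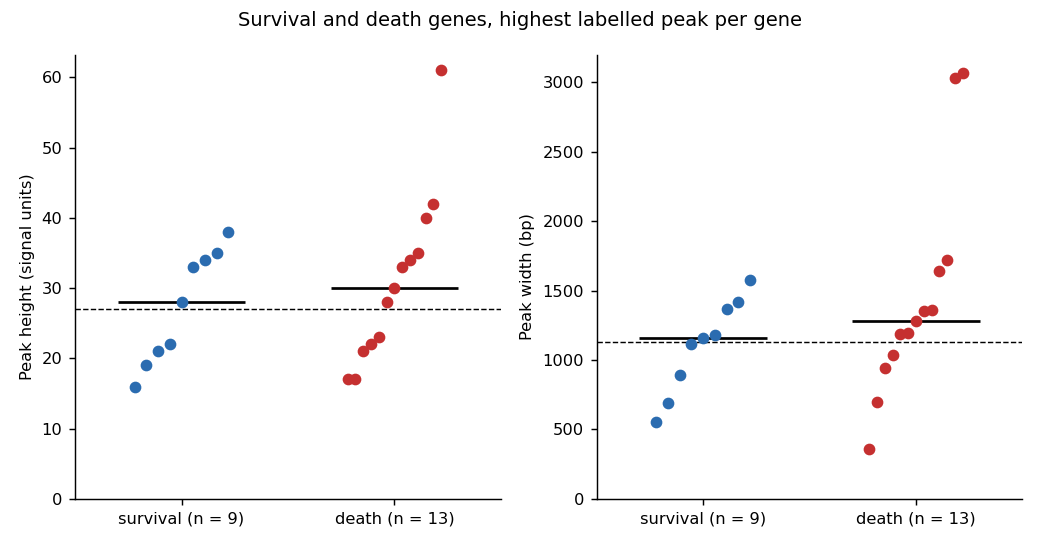
Height in signal units and width in bp of the highest labelled peak of each survival gene (n = 9) and death gene (n = 13). Points are genes, black bars are medians and the dashed lines are the medians of other labelled genes, 27 and 1131 bp. The groups overlap over most of their range, with CASP9 at 61 and BID and BAD above 3000 bp among the death genes.

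To see whether the 49 genes stand for their families, complete families of 84 genes were counted. Of these, 41 (48.8%) had a peak under their own symbol and 55 (65.5%) a peak by either criterion. The 35 family genes outside the 49 had lower counts, with 14 labelled (40%) and 16 by either criterion (45.7%), the latter near the 40.2% of all protein-coding genes. By label the share of all protein-coding genes was 30%. In the BCL2 family 11 of 21 genes were labelled and 15 had a peak by either criterion. The caspase family held 5 labelled genes of 12, and 6 by either criterion. In the IAP family 5 of 8 genes were labelled, and in the BAG family 2 of 6. BNIP genes had the fewest, with 1 labelled of 5. The death receptors and their adaptors had 10 labelled of 17, including TNF, TNFRSF1A, TNFRSF10B and TRAF2. The mitochondrial and executioner factors had 7 of 15, including CYCS, which encodes cytochrome c. Among genes with neither were FASLG, TNFSF10, HRK, BCL2L10, NAIP, CASP14 and CIDEA.

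**Figure D5:**
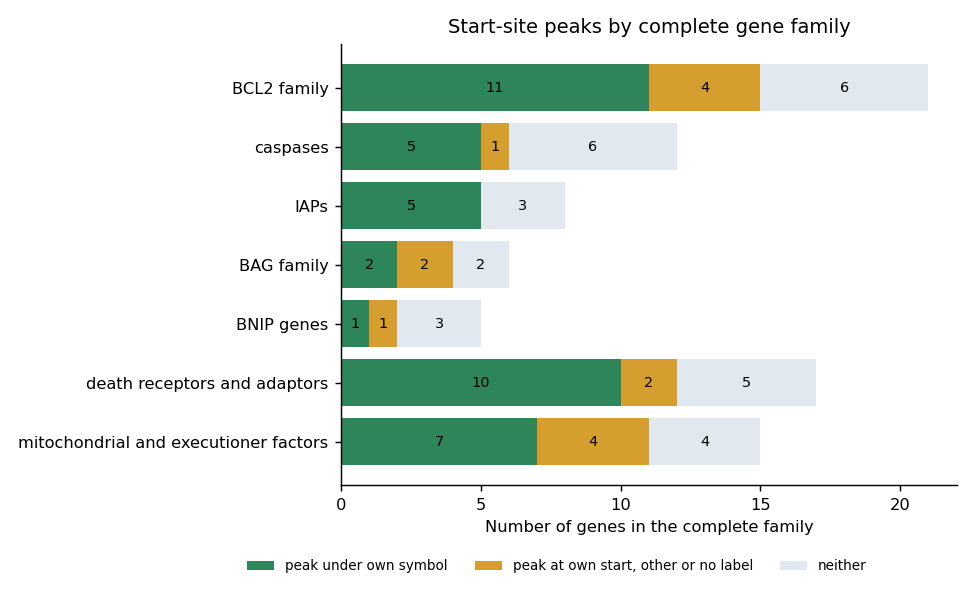
Number of genes in each complete family that have a peak under their own symbol, a peak at an own start site under another or no label, or neither. Bars start at 0 and add up to the family size, and in the BCL2 family the counts are 11, 4 and 6 of 21 genes.

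In sequence and position the 27 genes resembled the other labelled genes. Over 401 bp around the apex of the highest labelled peak, the median GC content was 64.3% against 64.6%, and the median observed-to-expected CpG ratio was 0.841 against 0.818. The median distance from the apex to an own start site was 75 bp for the 27 genes and 96 bp for the 5998 other genes with a start site in the annotation, and 85.2% against 75.7% lay within 200 bp. The 4 lowest CpG ratios among the 27 genes were those of BCL2A1 (0.113), BID (0.204), CASP8 (0.283) and BAK1 (0.339). At BID and CASP8 the highest labelled peak stood away from the 5′ end of the gene. Heights at these 4 genes ran from 16 to 42, so that low CpG went with low and high peaks alike.

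RARA binds the hexamer AGGTCA, usually as a repeat. The hexamer, on either strand, was present in the 401 bp of 3 of the 27 genes (11.1%) and of 15.9% of other labelled genes. A direct repeat of it with a spacer of 0 to 5 bases was present in 0 of the 27, which allows a share of up to 11.1%, and in 0.0767% of the others. Counting the 401 bp around the apex of all 34 labelled peaks, 5 genes held the hexamer. No share over all labelled peaks of other genes is given here, so this count has no background beside it. The sites are shown because this is the motif of the RARA moiety of the fusion. They are written in the direction of the hexamer, with 12 bases on each side. Capitals mark the hexamer.
CASP9 downstream peak (chr1:15851420-15851449, plus strand): accccgcccccaAGGTCAatcttgcgccac
CASP8 lower peak (chr2:202125347-202125376, plus strand): gcctctttgttaAGGTCAgaggggcctttt
BCL2L13 (chr22:18121377-18121406, plus strand): gtttgggtcttcAGGTCAcatctggacgga
BCL2L13 (chr22:18121504-18121533, minus strand): tgttggagggtgAGGTCAccccggcgtgcc
ENDOG (chr9:131580842-131580871, plus strand): tgagtggaagggAGGTCAcgctatcgtccg
XIAP (chrX:122993800-122993829, minus strand): cccccggccgggAGGTCAgcctcctgccct
The window of the BCL2L13 peak held 2 hexamers, on opposite strands, 30 bp upstream and 97 bp downstream of the apex. The XIAP site lay 109 bp upstream of the apex. The others lay downstream of it, by 69 bp at ENDOG, 108 bp at CASP9 and 124 bp at CASP8. The 401 bp around the apex of the highest CASP9 peak, at 61, held no hexamer, and neither did those of the highest CASP8 peak. The rest of these peaks was not searched.

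Other motifs were searched on both strands in the same windows. The GC box, the site of SP1, was present at 17 of the 27 genes (63.0%) and at 78.2% of other labelled genes. The CCAAT box, the site of NF-Y, was present at 12 (44.4%) and 45.2%, and the ETS site CCGGAAG at 6 (22.2%) and 22.8%. The E-box CACGTG was present at BAX, CASP8, CASP9 and DFFA (14.8% against 12.7%). The AP-1 site TGANTCA was found at CFLAR and FADD (7.41% against 6.92%), and the CRE TGACGTCA at BIRC2 (3.70% against 3.25%). All of these shares were within a few genes of the background, with the GC box the farthest from it, and the differences were not tested. Between roles, the CCAAT box was present at 8 of 13 labelled death genes and 1 of 9 labelled survival genes (XIAP), and the ETS site at 4 of 9 survival genes (BAG1, BIRC6, CFLAR and MCL1) and 1 of 13 death genes (BID). These counts are small and were picked out after the values were seen.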

How the data were processed

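Per the study's methods, reads were trimmed (Trimmomatic) and aligned to hg19 (Bowtie2), and PCR duplicates (Samtools) and reads in blacklisted regions (Bedtools) were taken out. SEACR then called peaks over paired controls with its norm union setting, and peaks passing an IDR of 0.05 over 2 replicates entered the list. Tool versions are not given in the sources used here. The authors deposited for each peak a total signal and a score, the largest signal (height), identified from their values. Whether they come from 1 replicate, a mean or pooled reads, and how they were scaled, is not stated. Peaks with the larger width can gather more total signal, so height was the main measure. Gene symbols are the authors', from UCSC known genes of hg19 at the apex. Which libraries the list came from was read from its name and the study's text.

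Start sites, exons and introns came from GENCODE release 44 on the same build, and sequences from its genome. For 34 peaks of the list, the interval of largest signal lacks an end and its start served as the apex. Per gene, the highest labelled peak was used. The genes, their roles, the families and the motifs were chosen with earlier results of these data known. Every one of the 49 genes could be named, with the highest, the widest, the repeatedly labelled and the unlabelled in full, and family genes outside them only as with or without a peak. Python 3.11.15, pandas 2.3.3, numpy 2.4.6, scipy 1.17.1, pysam 0.24.0 and samtools 1.23.1 were used, and the counting was tested on simulated lists. The anti-RARA and uninduced libraries were not analysed here. A few gene names are not reported here.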

Additional observations from a re-analysis of the deposited data

How the results depend on the processing

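The share of the 49 genes in the list depended most on how a peak was assigned. It was 55.1% by the authors' label, 75.5% by an apex within 1 kb of an own start site, 85.7% by any peak over the gene or within 10 kb, and 34.7% when labelled peaks at or above the median height of the list alone were counted. Over all protein-coding genes the same rules gave 30%, 39.3%, 53.3% and 17.5%. These moves follow from what each rule counts. The share was 44.9% with peaks at or above the median width, beside 22.4% of protein-coding genes, and 48.8% over complete families. The other 23 recomputed values, all of the ratios and the median percentile, moved by less than the spread between genes. With peak height, the ratio of medians of the 27 genes to other labelled genes ran from 1.08 to 1.15 over the alternatives. It was 1.06 with total signal and 1.02 with mean signal in place of height. The ratio of median width ran from 1.02 to 1.05. Between survival and death genes the ratio for height ran from 0.862 to 1.00, with total signal included. That for width ran from 0.831, with means on the log2 scale, to 0.970. Leaving out CASP9 was added after the values were seen. The height percentiles of CASP9, CASP8, BAD, BAG6 and BAG1 were recomputed in 20 ways, also added later, and 14 moved. The percentile of BAD was 83.3 by height, 60.4 within 1 of 10 classes of equal number by width and 96.1 by total signal. No paired analysis was possible because the values are not split by replicate, which also leaves no replicate to omit. Depth limits which weak peaks were listed, and it is unknown.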

Other observations

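Several peaks near the apoptosis genes belong to no start site of theirs. MCL1 had an unlabelled peak of height 39 and width 1854 bp from 150533406 to 150535259 on chromosome 1, at the far end of the gene and 2878 bp from a start site of ADAMTSL4. The height of this peak exceeded that of the MCL1 start-site peak, which was 35. BAG3, with no peak at its start, had an unlabelled peak of height 37 and width 578 bp beyond its 3′ end, 25581 bp from the nearest BAG3 start site. BID and BCL2L13 adjoin on chromosome 22, and an unlabelled peak of height 25 from 18209728 to 18210219 in coding exon 7 of BCL2L13 lay 14133 bp from a BID start site. Upstream of BID, 2 further unlabelled peaks of heights 24 and 22 lay 2499 and 7089 bp from its start sites. Downstream of BAX, 3 unlabelled peaks of heights 24, 30 and 22 lay near the ferritin gene FTL, and the highest had its apex 5 bp from an FTL start site. The highest peak within 10 kb of BCL2L2, of height 54, was labelled PABPN1. BMF, besides its 3 labelled peaks, had an unlabelled peak of height 24 in intron 4 and another of height 21 at 6973 bp upstream.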
